A study of Mus musculus with 24 samples.

Results

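The unfolded protein response genes described here are 10 genes chosen by name: Xbp1, Atf4, Ddit3, Hspa5, Hsp90b1, Calr, Dnajb9, Sdf2l1, Pdia4 and Herpud1. They were looked up in the gene table of the array, in which 22180 genes have a probe set of their own and 15526 passed the filter on low signal. A probe set of its own was found for 9 of the 10, 1 probe set each, and all 9 passed the filter. Pdia4 was covered only by a probe set that it shares with a microRNA gene, so it has no value here.

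The samples were 24 mice, 3 in each of 8 groups, with 1 Affymetrix expression array per mouse of eWAT, the epididymal white fat pad. Controls (CON) were Syt10-Cre/Cre x Bmal1-+/- and mutants (MUT) were Syt10-Cre/Cre x Bmal1-flox/-, so both were homozygous for Syt10-Cre and carried a non-functional Bmal1 allele, and the other Bmal1 allele was intact in CON and floxed in MUT. According to the labels the mutation, which follows where Syt10 drives Cre, removes clock function from the suprachiasmatic nucleus (SCN), the brain's central pacemaker. The mice lived in a light-dark cycle for 2 weeks, were moved to constant darkness, and were killed on day 2 there, every 6 h at circadian times (CT) 1, 7, 13 and 19. The sources used here give neither age nor sex.

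The unfolded protein response answers an excess of unfolded protein in the endoplasmic reticulum (ER). The membrane sensors PERK, IRE1 and ATF6 act through transcription factors: PERK raises translation of ATF4, which induces the gene of CHOP (Ddit3), IRE1 splices the Xbp1 message, and ATF6 is cut to release an active fragment. These factors raise ER chaperones, folding enzymes and the machinery that sends misfolded proteins to the proteasome (ER-associated degradation, ERAD). In fat, the ER makes secreted adipokines and extracellular matrix as well as membrane lipids. Splicing of Xbp1, translation of ATF4 and cleavage of ATF6 are not read by a gene-level array, so the values are total transcript signals only.

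All 10 genes have a promoter in the RefSeq table for GRCm38.p6, given as 250 bases before to 50 bases after the start. The ER stress response element ERSE, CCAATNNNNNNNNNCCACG on either strand, is the sequence through which ATF6 and XBP1 act with NF-Y on chaperone genes. It was found in 39 of 32851 promoters (0.119%), among them those of Hspa5, Hsp90b1 and Calr. The shorter ERSE-II, ATTGG and CCACG with 1 base between them on either strand, was found in 12 promoters (0.0365%), among them that of Herpud1. These matches are shown because the promoters of 4 of the genes hold the same kind of element. Whether the element acts in these samples was not tested. Capitals mark the match with 15 bases on each side, read 5′ to 3′ on the gene's strand, so a match on the opposite strand appears as its reverse complement.
Hspa5, chr2:34772010-34772058, plus strand, ERSE 65 to 47 bases before the start: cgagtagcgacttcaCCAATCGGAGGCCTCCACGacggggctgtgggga
Hsp90b1, chr10:86705623-86705671, minus strand, ERSE 212 to 194 bases before the start: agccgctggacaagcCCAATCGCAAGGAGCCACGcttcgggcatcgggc
Hsp90b1, chr10:86705518-86705566, minus strand, ERSE on the opposite strand, 107 to 89 bases before the start: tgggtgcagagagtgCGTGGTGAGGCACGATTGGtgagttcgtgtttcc
Calr, chr8:84847060-84847108, minus strand, ERSE on the opposite strand, 162 to 144 bases before the start: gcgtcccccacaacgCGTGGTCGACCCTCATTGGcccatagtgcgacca
Herpud1, chr8:94386362-94386402, plus strand, ERSE-II 52 to 42 bases before the start: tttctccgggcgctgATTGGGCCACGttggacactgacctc

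The Herpud1 promoter also holds the amino acid response element TGATGNAA, the sequence bound by ATF4 with C/EBP partners, found on either strand in 1304 promoters (3.97%). The E-box CACGTG, to which the clock factors CLOCK and BMAL1 bind, reads the same on both strands and was found in 2349 promoters (7.15%), among them those of Dnajb9 and Calr. The unfolded protein response element TGACGTGG was found on either strand in 222 promoters (0.676%) and in none of the 10. These 3 windows are shown because they hold letters that ATF4 or the clock factors can bind. Binding at these promoters was not measured.
Herpud1, chr8:94386302-94386339, plus strand, amino acid response element on the opposite strand, 112 to 105 bases before the start: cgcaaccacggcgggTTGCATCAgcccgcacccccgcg
Dnajb9, chr12:44210155-44210190, minus strand, E-box 107 to 102 bases before the start: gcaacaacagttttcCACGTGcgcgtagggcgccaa
Calr, chr8:84847135-84847170, minus strand, E-box 224 to 219 bases before the start: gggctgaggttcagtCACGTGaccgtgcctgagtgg

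Signals are log2 values, so a difference of 1 is a doubling, and each is given per mouse in the order of the labels' letters a, b and c. The array medians lay between 7.80 and 7.94, and correlations between arrays over all 34390 probe sets between 0.982 and 0.996. Medians ran from 7.86 to 7.94 over the CON arrays and from 7.80 to 7.88 over the MUT arrays. This offset lies along the genotype comparison, so it cannot be told apart from a genotype difference in the MUT minus CON values. Results that change when all arrays are shifted to the same median are named. The source field of the labels names the mediobasal hypothalamus, whereas eWAT is the tissue in the titles and the treatment text. All 10 adipocyte markers were tested, with a median signal of 13.01, and of the 13 hypothalamic and neuronal markers 8 passed the filter at log2 7.42, with a median over the 12 measured of 7.83. Arntl, the gene of BMAL1, gave a MUT minus CON daily mean of 0.11 (adjusted p = 0.277), and its 24-h rhythm had a peak-to-trough of 1.59 in CON, with a peak at CT20.5, and 1.41 in MUT, with a peak at CT15.9. Its rhythm differed between the genotypes (limma, vector of 1.69, adjusted p = 0.000328), with MUT 1.16 above CON at CT13 (adjusted p = 0.000775). The same circadian time therefore set different Arntl phases of the fat side by side, and Arntl in fat does not check the deletion labelled for the SCN. The 3 arrays with the narrowest spread of signals among the CON arrays were replicates 2 and 3 of CON CT7 and replicate 1 of CON CT13, and results that change without them are named.

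Over the 24 mice the distance from the lowest to the highest signal ran from 0.35 for Calr to 0.81 for Dnajb9, which is 1.28-fold to 1.75-fold. A 24-h rhythm, fitted as a cosine to the 4 time means and tested with limma's moderated F test, was called in CON for 1 of 9, Herpud1, against 17.1% of all genes. In MUT it was called for 0 of 9, against 0.348% of all genes, and 2 of 9 had an unadjusted p under 0.05, as did 14.6% of all genes. A difference in rhythm between genotypes was called for 0 of 9, against 1.44% of all genes, and 2 of 9 had an unadjusted p under 0.05, as did 15.7% of all genes. The daily mean differed between genotypes for 2 of 9, against 21.7% of all genes. Hsp90b1 was higher in MUT, against 12.3% of all genes called higher, and Atf4 was lower, against 9.42% called lower. The Benjamini-Hochberg adjustment ran over all 15526 genes, and a gene is called where its adjusted p is under 0.05.

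**Figure D1:**
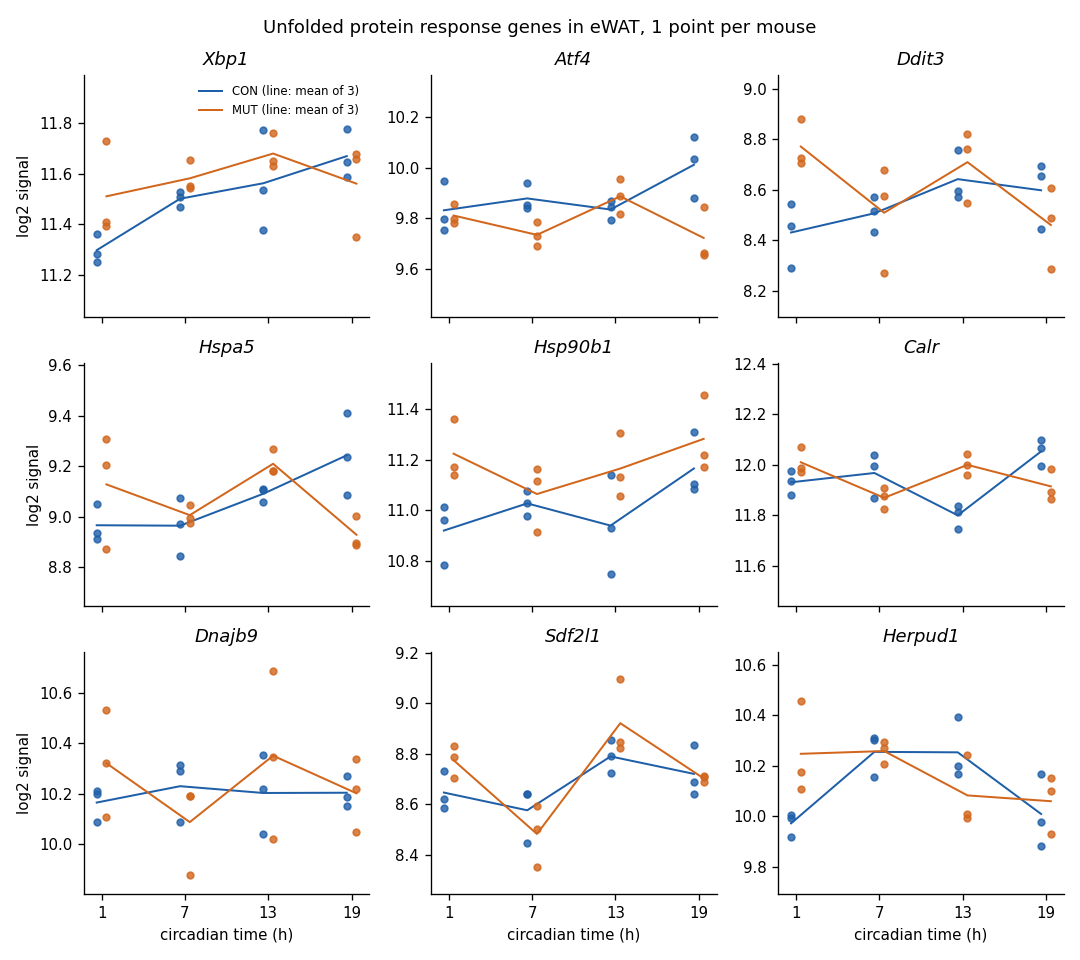
Log2 signal of the 9 measured genes (vertical axis) against circadian time in h (horizontal axis), with 1 point per mouse, CON in blue and MUT in orange, and lines through the means of 3 mice. The Atf4 points of CT19 do separate by genotype, with CON between 9.88 and 10.12 and MUT between 9.66 and 9.85, and those of Dnajb9 overlap at each time.

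Among the transcription factors, Xbp1, the target of IRE1, gave 11.25, 11.36 and 11.28 in CON at CT1, 11.47, 11.51 and 11.53 at CT7, 11.54, 11.38 and 11.77 at CT13, and 11.78, 11.65 and 11.59 at CT19. All CON mice of CT1 lay below those of the other 3 times. The fitted peak-to-trough was 0.31 ± 0.10 (SE) with a peak at CT15.2, and it missed the threshold (limma, adjusted p = 0.0720). It passed when CON CT13 replicate 2 (0.39), MUT CT1 replicate 1 or MUT CT19 replicate 3 was left out (both 0.31). In MUT the 12 values ran from 11.35 to 11.76, with means of 11.51 ± 0.19 (SD, n = 3), 11.58 ± 0.06, 11.68 ± 0.07 and 11.56 ± 0.18 in order of time, and the peak-to-trough was 0.17 ± 0.10 (adjusted p = 0.597). At CT1 and at CT7 every MUT mouse lay above every CON mouse, a pattern that 10.0% and 15.2% of all genes showed at those times. Neither difference was called, with 0.21 ± 0.10 at CT1 (adjusted p = 0.412) and 0.08 ± 0.10 at CT7 (adjusted p = 0.677).

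Atf4, whose protein drives amino acid supply and, with CHOP, the later phase of the response, was lower in MUT than in CON at CT19. The CON mice gave 10.04, 10.12 and 9.88 there and the MUT mice 9.66, 9.85 and 9.66, with no overlap. The difference was -0.29 ± 0.07 (SE), an 0.818-fold level (limma, adjusted p = 0.0316), and 1 of the 9 genes was called lower at this time against 0.812% of all genes. At CT7 the groups did not overlap either, with 9.84, 9.85 and 9.94 in CON and 9.73, 9.78 and 9.69 in MUT, where 10.3% of all genes showed MUT below CON in that way, and the difference of -0.14 ± 0.07 was not called (adjusted p = 0.248), except with array weights (-0.18). At CT1 and CT13 the groups overlapped, with differences of -0.02 ± 0.07 and 0.05 ± 0.07.

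Over the day the Atf4 difference was -0.10 ± 0.04 (SE, limma, adjusted p = 0.0448). That call ended without any 1 of 17 of the 24 arrays, and after shifting all arrays to the same median the difference was -0.056. It ended too without the 3 arrays of narrow spread (-0.087) and with the mesothelium (-0.11), adipocyte (-0.067), fibroblast and preadipocyte (-0.092) or endothelium (-0.095) score as a covariate. The CT19 call ended without any 1 of 4 arrays, CON replicates 1 and 2 and MUT replicates 1 and 3 of that time. It also ended in a fit of the CT19 arrays alone, after the shift to the same median (-0.24) and with an adipocyte (-0.23) or endothelium (-0.28) marker score as a covariate. The adipocyte score, the median over the 10 adipocyte markers of the deviation from each marker's mean, at CT19 averaged -0.030 over the CON mice (SD 0.077, n = 3) and 0.012 over the MUT mice (SD 0.019). The 10 markers' summed signal ran from log2 16.2 to 16.4 over the CON arrays and from 16.3 to 16.4 over the MUT arrays. In RNA from whole tissue, fewer cells of a type and less RNA per cell cannot be told apart.

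Ddit3, which encodes CHOP, the factor tied to cell death in prolonged ER stress, gave 8.54, 8.29 and 8.46 in CON and 8.70, 8.88 and 8.73 in MUT at CT1. The MUT mice were all above the CON mice at that time and overlapped with them at the other 3. The difference of 0.34 ± 0.10 (SE) was not called (limma, adjusted p = 0.184), and no gene of the 9 was called at CT1, where 0.0451% of all genes were. An unadjusted p under 0.05 was found at CT1 for 4 of the 9 and for 11.5% of all genes. At CT7, CT13 and CT19 the differences were 0.0021, 0.07 and -0.14, each with an SE of 0.10. The fitted peak-to-trough was 0.23 ± 0.10 in CON (adjusted p = 0.245) and 0.08 ± 0.10 in MUT (adjusted p = 0.902).

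Hspa5 encodes BiP, the ER's main Hsp70 chaperone and the protein that holds the sensors inactive. Its CON values were 8.91, 9.05 and 8.94 at CT1, 8.97, 9.08 and 8.85 at CT7, 9.06, 9.11 and 9.11 at CT13, and 9.24, 9.41 and 9.08 at CT19. The MUT values were 9.31, 8.87 and 9.20, then 9.05, 8.97 and 8.997, then 9.18, 9.27 and 9.18, then 8.89, 8.90 and 9.003. At CT13 every MUT mouse was above every CON mouse, and at CT19 every MUT mouse was below, patterns that 10.0% and 13.3% of all genes showed. The mean of 3 was highest at CT19 in CON (9.24 ± 0.16, SD) and lowest at CT19 in MUT (8.93 ± 0.06).

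Neither Hspa5 difference passed the threshold, with 0.12 ± 0.09 (SE) at CT13 (limma, adjusted p = 0.457) and -0.31 ± 0.09 at CT19 (adjusted p = 0.0589). No gene of the 9 was called at CT13 against 0.322% of all genes, and 2 of the 9 had an unadjusted p under 0.05 there, as did 19.8% of all genes. The CON rhythm of 0.31 ± 0.09 with a peak at CT17.4 ± 1.1 h (SE) also missed it (adjusted p = 0.0567), and the MUT rhythm was 0.11 ± 0.09 (adjusted p = 0.760). The CON rhythm passed when arrays were shifted to the same median, weighted, or filtered at the 60th percentile of signal, and when CON CT7 replicate 2, CON CT19 replicate 3, MUT CT1 replicate 1 or MUT CT1 replicate 2 was left out. The CT19 difference passed without CON CT19 replicate 3, the lowest of its group (-0.39), and without either MUT CT1 replicate 1 or 2 (-0.31). It also passed with the signal-level trend taken out (-0.36), with the filter at the 60th percentile (-0.31) and with array weights (-0.32).

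Hsp90b1 encodes GRP94, the ER's Hsp90 chaperone, whose clients include integrins and Toll-like receptors, and its daily mean was higher in MUT. The CON mice gave 11.01, 10.78 and 10.96 at CT1, 11.08, 11.03 and 10.98 at CT7, 10.75, 10.93 and 11.14 at CT13, and 11.31, 11.08 and 11.10 at CT19. The MUT mice gave 11.36, 11.14 and 11.17, then 10.91, 11.16 and 11.12, then 11.13, 11.31 and 11.06, then 11.46, 11.17 and 11.22. The MUT mean was the higher of the pair at each of the 4 times, by 0.30, 0.04, 0.23 and 0.12 (SE 0.10 each), and the groups were apart only at CT1.

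The daily mean of Hsp90b1 differed by 0.17 ± 0.05 (SE), or 1.13-fold (limma, adjusted p = 0.0229, 95% interval 0.07 to 0.28). It was 0.15 and lost its call without CON CT13 replicate 1, the lowest CON value, and it was 0.12 on quantile-normalized values and 0.11 once a trend of the differences on signal level was taken out, neither with a call. With the mesothelium marker score as a covariate it was 0.10, with the adipocyte or the fibroblast and preadipocyte score 0.15, and without the 3 arrays of narrow spread 0.14, none of them with a call. With the endothelium score, added after seeing the data, it was 0.085 (adjusted p = 0.323, beside 0.00532 to 0.323 over the settings other than a left-out array). The mesothelium score, from 8 of 8 markers tested, was lowest in CON at CT7 (-0.65 ± 0.04, SD, n = 3) against -0.19 in MUT, and highest in MUT at CT19 (0.44). The markers' summed signal ran from log2 11.6 to 12.8 over the CON arrays and from 11.7 to 13.2 over the MUT arrays. All 8 endothelial markers were tested, and all 8 had a higher daily mean in MUT, by a median of 0.085. Of the 8, 2 were called, where 12.3% of all genes were called higher. Their summed signal ran from log2 13.6 to 13.9 over the CON arrays and from 13.8 to 14.0 over the MUT arrays, and their score at CT19 averaged -0.082 in CON and 0.12 in MUT. No time difference was called for Hsp90b1 in either genotype.

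Calr encodes calreticulin, the calcium-binding lectin chaperone that folds glycoproteins. In CON the mice gave 11.94, 11.88 and 11.97 at CT1, 11.996, 12.04 and 11.87 at CT7, 11.75, 11.84 and 11.81 at CT13, and 12.10, 12.07 and 11.995 at CT19. All 3 values of CT13 were below all those of the other times. The distance between the highest and lowest time mean was 0.25 ± 0.06 (SE), and the F test over the 4 times called a time difference (limma, adjusted p = 0.0296). For such distances, here and in the other genes, the SE is that of a pair of time means fixed beforehand. It does not take in that the highest and lowest were picked, which raises the distance. That test called 2 of 9 genes in CON, Calr and Herpud1, against 13.2% of all genes.

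In MUT, Calr gave 12.04, 11.96 and 11.999 at CT13 and 11.89, 11.87 and 11.99 at CT19, above all CON mice at the first of these times and below them at the second. The differences of 0.20 ± 0.06 (SE) and -0.14 ± 0.06 were not called (limma, adjusted p = 0.112 and 0.171), and the first of them was called when arrays were shifted to the same median (0.26). Over the day Calr differed by 0.011, with a 95% interval from -0.05 to 0.07. The CON call ended without any 1 of 4 arrays, CON CT13 replicates 1 and 3 and CON CT19 replicates 1 and 2. It also ended after quantile normalization (0.21), without the 3 arrays of narrow spread (0.23), in a fit of the CON arrays alone, and with the mesothelium or the fibroblast and preadipocyte score as a covariate. The 24-h cosine of Calr, with its low point at 1 time only, was 0.16 ± 0.06 in CON (adjusted p = 0.145).

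Dnajb9 encodes ERdj4, an Hsp40 cochaperone of BiP and a classical target of XBP1. Its CON values ran from 10.04 to 10.35 and its MUT values from 9.88 to 10.69, with overlap of the genotypes at each time. The group with the most spread was MUT at CT13, with 10.02, 10.35 and 10.69. No comparison called it, and the daily mean differed by 0.040 ± 0.066 (SE), with a 95% interval from -0.10 to 0.18. Its CON rhythm was 0.046 ± 0.131, and its peak time had an SE of 10.9 h.

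Sdf2l1 encodes an ER protein that works with BiP and its cochaperones, and it had the only time difference called in MUT. The MUT mice gave 8.83, 8.79 and 8.70 at CT1, 8.50, 8.35 and 8.59 at CT7, 8.82, 9.10 and 8.85 at CT13, and 8.71, 8.71 and 8.69 at CT19. All CT7 mice were below all others, and the highest minus the lowest time mean was 0.44 ± 0.08 (SE), or 1.36-fold (limma, F test over 4 times, adjusted p = 0.0423), 1 of 9 genes against 0.425% of all genes. In CON the same gene gave 8.62, 8.73 and 8.59, then 8.64, 8.64 and 8.45, then 8.86, 8.79 and 8.72, then 8.83, 8.64 and 8.69, with its lowest and highest means at the same times as in MUT. Its CON difference of 0.21 ± 0.08 was not called (adjusted p = 0.209).

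The test of genotype by time over the 4 times gave Sdf2l1 an adjusted p of 0.505 (limma), so the genotypes were not shown to differ in this pattern. The MUT call ended without any 1 of 15 of the 24 arrays and under 8 of the other settings, among them quantile normalization (0.42) and a fit of the MUT arrays alone (0.44). At each time the genotypes overlapped, with differences of 0.13, -0.09, 0.13 and -0.02 (SE 0.08 each).

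Herpud1 encodes an ER membrane protein that gathers the ERAD ubiquitin ligase complex, and it was the only gene of the 9 with a called 24-h rhythm. In CON the mice gave 9.92, 9.99 and 10.00 at CT1, 10.31, 10.30 and 10.15 at CT7, 10.17, 10.20 and 10.39 at CT13, and 10.17, 9.88 and 9.98 at CT19. All 6 values of CT7 and CT13 lay above all 3 values of CT1, and the CT19 values ran from the level of CT1 up to the lower end of CT7 and CT13. The peak-to-trough was 0.37 ± 0.09 (SE), or 1.30-fold, with the peak at CT10.3 ± 0.96 h (limma, adjusted p = 0.0231). The highest minus the lowest time mean was 0.28 ± 0.09. The F test over the 4 times gave an adjusted p of 0.0489, and it lost that call without any 1 of 18 of the 24 arrays.

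In MUT, Herpud1 gave 10.46, 10.17 and 10.11 at CT1, 10.29, 10.27 and 10.21 at CT7, 9.99, 10.24 and 10.01 at CT13, and 10.15, 10.10 and 9.93 at CT19. The fitted rhythm was 0.26 ± 0.09 (SE) with a peak at CT4.35 ± 1.4 h, and it was not called (limma, adjusted p = 0.313). At CT1 all MUT mice were above all CON mice, by 0.28 ± 0.09 on average (adjusted p = 0.228). The difference between the genotypes' rhythms, a vector of 0.45 ± 0.13, had an adjusted p of 0.161, and with the endothelium score as a covariate it was 0.63 and called (adjusted p = 0.0162, beside 0.0162 to 0.237 over the settings other than a left-out array). The CON rhythm lost its call without CON CT1 replicate 1, CON CT13 replicate 3 or CON CT19 replicate 2, and without the 3 arrays of narrow spread, where its size was 0.44. It kept its call with the mesothelium, adipocyte, endothelium or fibroblast and preadipocyte score as a covariate.

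**Figure D2:**
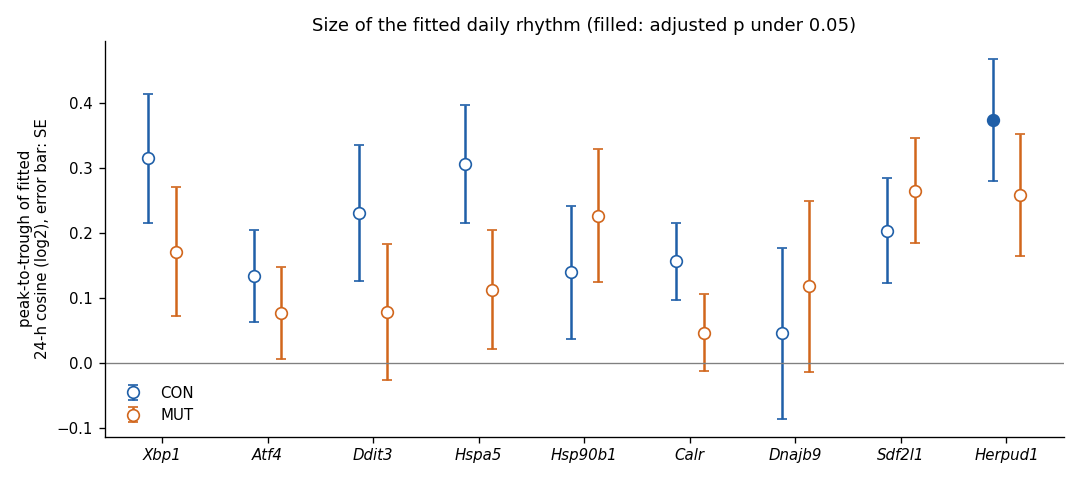
Peak-to-trough of the fitted 24-h cosine in log2 units (vertical axis, a size that cannot be below 0) for each gene in CON (blue) and MUT (orange), with bars of 1 SE and a filled point where the adjusted p was under 0.05. Herpud1 in CON, at 0.37, is the 1 filled point, and the bars of most gene pairs overlap.

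Only Herpud1 had a called CON rhythm, so the other fitted peaks are a description. Whether the peak times differ between genes was not tested. Herpud1 peaked at CT10.3, and the fits placed Calr at CT22.8 and Dnajb9 at CT10.7 (SE 10.9 h). Those of Ddit3, Xbp1, Sdf2l1, Hspa5, Hsp90b1 and Atf4 fell between CT14.6 and CT18.9. The median size of the 9 was 0.20 in CON, against 0.18 for all genes, and 0.12 in MUT, against 0.13 for all genes.

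The signs of the genotype differences changed with time of day. MUT was above CON for 8 of 9 genes at CT1, 5 of 9 at CT7, 8 of 9 at CT13 and 2 of 9 at CT19. The median differences were 0.16, 0.0021, 0.12 and -0.11, against medians over all genes between -0.0016 and 0.0064. At CT1 every MUT mouse was above every CON mouse for 4 of 9 genes (Hsp90b1, Xbp1, Ddit3 and Herpud1), against 10.0% of all genes. At CT7 that held for Xbp1 (15.2% of all genes), and Atf4 had every MUT mouse below (10.3%). At CT13 MUT was above for Hspa5 and Calr (10.0%), and at CT19 it was below for Hspa5, Atf4 and Calr (13.3%). No gene was called at CT7, where 4.05% of all genes were, and 0 of the 9 had an unadjusted p under 0.05 (20.6% of all genes). At CT19 1 was called against 2.74% of all genes. A test of genotype by time over the 4 times, added after seeing the data, called 0 of 9 against 1.36% of all genes. The lowest adjusted p among the members in that test was 0.0754, for Calr (limma).

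**Figure D3:**
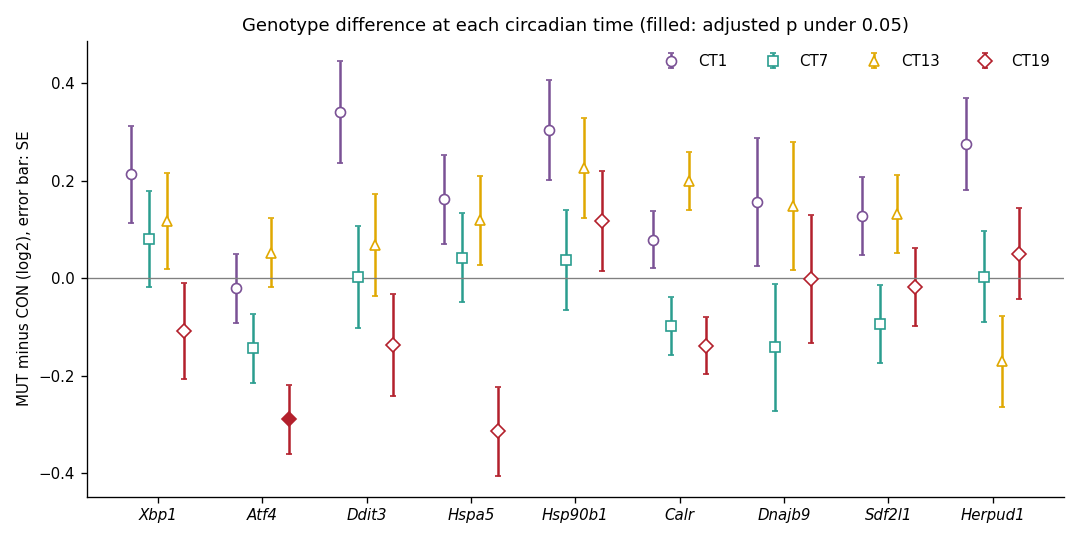
MUT minus CON in log2 units (vertical axis) for each of the 9 genes at CT1, CT7, CT13 and CT19, each from 3 against 3 mice, with bars of 1 SE and a filled point where the adjusted p was under 0.05. Atf4 at CT19 (-0.29) is the 1 filled point, and Hspa5 at CT19 (-0.31) has a similar size without passing.

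Whether the genes varied together between mice of the same group was asked of the 24 deviations from the group means, for 36 pairs. The median Pearson r was 0.16, with 23 pairs above 0 and a range from -0.47 to 0.67. Pairs of a member with another gene had a median of 0.0024 and 5th and 95th percentiles of -0.44 and 0.49. At an unadjusted permutation p under 0.05 there were 4 pairs, and after adjustment over the 36 there were 0. The points share the normalization and the pieces of tissue from which each array was made.

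The highest r was between Hsp90b1 and Herpud1, a chaperone and an ERAD component. It was 0.67 (permutation within groups, two-sided, p = 0.00486, adjusted p = 0.173), with a Spearman rho of 0.58 (p = 0.0136, adjusted p = 0.268). Without the 2 mice farthest from the median r was 0.60, and it was 0.72 within CON and 0.63 within MUT. Xbp1 and Herpud1 had an r of 0.66 (permutation p = 0.0144, adjusted p = 0.173) and a rho of 0.60 (p = 0.0233, adjusted p = 0.280), with r = 0.50 without 2 mice. Atf4 and Ddit3, a factor and its target gene, had an r of 0.29, and Hspa5 and Ddit3 had the lowest, -0.47 (permutation p = 0.0138, adjusted p = 0.173), with a rho of -0.46 (p = 0.0323, adjusted p = 0.283) and r = -0.43 without 2 mice, -0.63 within CON and -0.37 within MUT.

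Marker scores were set against these genes between the same mice, in 45 relations of 9 genes with 5 scores. After adjustment only Herpud1 and Hsp90b1 with the endothelium score passed by r, and none passed by rho. The lowest r was -0.56, for Atf4 with the adipocyte score (permutation p = 0.0690, adjusted p = 0.345). Herpud1 had an r of 0.72 with the endothelium score (permutation p = 0.000950, adjusted p = 0.0427) and a rho of 0.76 (p = 0.00144, adjusted p = 0.0648), with r = 0.68 without 2 mice, 0.77 within CON and 0.69 within MUT. Hsp90b1 had 0.60 with it (permutation p = 0.00207, adjusted p = 0.0466) and a rho of 0.55 (p = 0.0122, adjusted p = 0.183), with r = 0.57 without 2 mice, 0.70 within CON and 0.50 within MUT. With the mesothelium score the r of Herpud1 was 0.55 (permutation p = 0.0132, adjusted p = 0.197), with a rho of 0.56 (p = 0.00962, adjusted p = 0.183) and r = 0.47 without 2 mice. That of Hsp90b1 was 0.58 (permutation p = 0.0231, adjusted p = 0.251), with a rho of 0.52 (p = 0.0451, adjusted p = 0.326) and r = 0.50 without 2 mice. The part of these cell types in the correlations between genes was not tested.

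**Figure D4:**
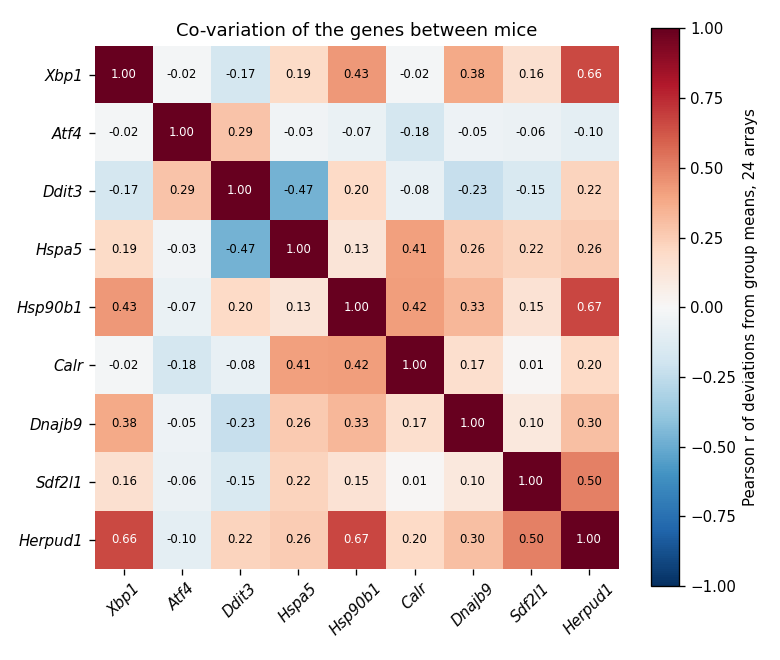
Pearson r between the 9 genes over 24 arrays, computed on deviations from the means of the 8 groups, on a colour scale from -1 to 1 with the value in each cell. The warmest cells off the diagonal join Herpud1 with Hsp90b1 (0.67) and Xbp1 (0.66), and the row of Atf4 runs from -0.18 with Calr to 0.29 with Ddit3.

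By the same measure over 24 arrays, the tested genes most like Herpud1 were Cyp4b1 (r = 0.91), Dnajc18 (0.88) and Timp3 (0.88). Those most like Hsp90b1 were Eif3f (0.90), Ppp4r3b (0.84) and Spred2 (0.83), and those most like Xbp1 were Dipk2a (0.86), B4galt1 (0.84) and Bmpr1a (0.82). Hspa5 was most like Hspb8 (0.79), Dnase1l2 (0.79) and Fsd1 (0.78), and Calr most like Chd9 (0.79), Chd7 (0.75) and Tyrp1 (0.75). Atf4 had its nearest genes in Zcchc14 (0.73), B130006D01Rik (0.70) and Mrps14 (0.70), and Ddit3 in Mnat1 (0.86), Stxbp3 (0.86) and Marveld1 (0.83). For Dnajb9 they were St3gal6 (0.84), Znrd1 (0.82) and Pls3 (0.81), and for Sdf2l1 Abcc12 (0.84), Serpinb9b (0.80) and Sox18 (0.78). None of the 9 was among the 3 genes nearest to another of them.

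The other genes of the pathway were taken from 5 lists of 80 further genes, of which 75 were tested. A CON rhythm was called for 19 of 75 (25.3%) and a MUT rhythm for 0 of 75 (limma), where 12 had an unadjusted p under 0.05, beside the shares of all genes given above. Of the 19, 14 peaked between CT15 and CT21, as did 38.7% of all genes called. The daily mean was called higher in MUT for 22 and lower for 2, 32% of the 75 and a median of 0.05, but for 7 higher and 0 lower after quantile normalization (9.33%, against 12.6% of all genes). Once the trend on signal level was taken out it was 6 higher and 1 lower (9.33%, against 12% of all genes), and with equal array medians 33 higher and 0 lower. Over all genes the main fit gave 1902 higher and 1463 lower, 56.5% of the calls higher, and the shift to equal medians gave 3812 and 537, 87.7% higher.

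The counts of the 75, and those of all genes, also moved with cell type scores. With the fibroblast and preadipocyte score as a covariate 1 CON rhythm (6.32% of all genes) and 8 daily means (9.15% of all genes) were called. With the mesothelium score they were 6 (9.47%) and 4 (4.58%), and with the endothelium score 25 (16.9%) and 5 (3.81%). The fibroblast and preadipocyte score, from 8 of 8 markers, was lowest in CON at CT7 (-0.32 ± 0.08, SD, n = 3), where MUT had -0.08 ± 0.08. It was highest at CT19 in both, with 0.15 ± 0.11 and 0.17 ± 0.11. The markers' summed signal ran from log2 13.5 to 14.2 over the CON arrays and from 13.8 to 14.2 over the MUT arrays. Without the 3 arrays of narrow spread 4 CON rhythms (6.51% of all genes) and 2 daily means (1.91% of all genes) were called. Leaving out 1 array at a time gave 11 to 21 CON rhythms, with 11 without CON CT7 replicate 2 or 3, and 15 to 30 daily means, with 15 without CON CT13 replicate 1 and 30 without CON CT13 replicate 3.

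Of the 9 sensors and their proteases, 3 had a CON rhythm (17.1% of all genes). A different daily mean was called for 4 (21.7% of all genes), 3 higher and 1 lower in MUT. Creb3l1, which encodes OASIS, an ER stress sensor of the ATF6 family that drives collagen genes, had a rhythm and a daily mean that were both called. Its CON mice gave 9.65, 9.93 and 9.64 at CT1, 9.09, 9.29 and 9.12 at CT7, 9.61, 9.31 and 9.35 at CT13, and 9.74, 9.73 and 9.86 at CT19, and its MUT mice ran from 9.38 to 10.19. The CON rhythm was 0.69 ± 0.11 (SE) with a peak at CT20.8 (limma, adjusted p = 0.00126). In MUT the rhythm was 0.55 ± 0.11 with a peak at CT19.1 and missed the threshold (adjusted p = 0.0630). The difference in rhythm was not called (adjusted p = 0.530). The MUT daily mean was 0.35 ± 0.06 higher (adjusted p = 0.00121). The calls of the CON rhythm and of the daily mean held without each array in turn and under every other setting run. The ATF6 genes themselves, Atf6 and Atf6b, had CON rhythms of 0.28 and 0.25 (adjusted p = 0.0431 and 0.0412) that ended without any 1 of 13 and of 10 arrays.

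In the PERK and ATF4 arm, 5 of 15 further genes had a CON rhythm (17.1% of all genes). A higher daily mean was called for 1 (12.3% of all genes) and a lower one for 0 (9.42%). The rhythms were those of Asns, asparagine synthetase, Slc3a2, a chain of amino acid exchangers, Ppp1r15b, a phosphatase subunit that acts on eIF2α, Sesn2 and Ddit4. They peaked at CT17.6, CT18.2, CT6.66, CT3.33 and CT5.92, and the call of Ddit4 ended without any 1 of 6 arrays. A difference in rhythm was called for 1 of the 75 (1.33%), near the share of all genes (1.44%). That gene was Asns, a target of ATF4, with 0.64 ± 0.14 (SE, limma, adjusted p = 0.0420). Its CON means were 10.08, 9.95, 10.26 and 10.42 and its MUT means 9.97, 10.25, 10.23 and 10.09 in order of time. At CT19 the CON mice (10.37, 10.36 and 10.52) were all above the MUT mice (10.00, 10.14 and 10.13), and the difference of -0.33 ± 0.10 missed the threshold (adjusted p = 0.0624). Sesn2, the 1 further gene of this arm called at CT19, was 0.41 ± 0.11 higher in MUT (adjusted p = 0.0414), a call that ended without any 1 of 4 arrays and under 8 other settings, and Slc3a2 differed by -0.010. The call of a different rhythm ended without any 1 of 13 arrays and under 5 other settings.

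In the IRE1 and XBP1 arm, which holds translocation and secretory genes, 6 of 21 further genes had a CON rhythm (17.1% of all genes). A higher daily mean was called for 6 (12.3% of all genes) and a lower one for 0 (9.42%). Sec24d, a coat protein of vesicles that leave the ER, was 0.25 ± 0.04 (SE) higher in MUT over the day (limma, adjusted p = 0.00134), and that call held without each array and under every other setting run. Spcs3, of the signal peptidase, and Ssr3, of the translocon, were higher by 0.20 and 0.16. These calls ended under 3 of 13 and 6 of 14 other settings. The most sizeable CON rhythm called in this list was that of Ssr1, 0.43 ± 0.09 with a peak at CT19.5 (adjusted p = 0.00823).

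Of 15 further chaperones and folding enzymes, 3 had a CON rhythm (17.1% of all genes). A higher daily mean was called for 7 (12.3% of all genes) and a lower one for 0 (9.42%). Ppib, cyclophilin B, which folds collagen, gave CON means of 10.63, 10.46, 10.88 and 11.03 and MUT means of 10.86, 11.02, 11.02 and 10.97. Its CON rhythm was 0.62 ± 0.10 (SE) with a peak at CT17.4 (limma, adjusted p = 0.00132), and at CT7 it was 0.56 ± 0.10 higher in MUT (adjusted p = 0.00445), a call that ended without the 3 arrays of narrow spread and with the fibroblast and preadipocyte score as a covariate. P4hb, protein disulfide isomerase, was 0.14 ± 0.03 higher over the day (adjusted p = 0.00830), a call that ended under 4 of 14 other settings. In ERAD, 2 of 15 further genes, Vcp and Derl1, had a CON rhythm (17.1% of all genes), with peaks at CT2.27 and CT18.5. A different daily mean was called for 6 (21.7% of all genes), 5 higher and 1 lower. Edem1, which draws glycoproteins out for degradation, and Ube2j1, a ubiquitin-conjugating enzyme, were higher by 0.21 and 0.18. These calls ended under 4 and 2 of 14 other settings. Derl3 had a difference of -0.18 ± 0.06, a call that ended without any 1 of 10 arrays and under 8 of 13 other settings.

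**Figure D5:**
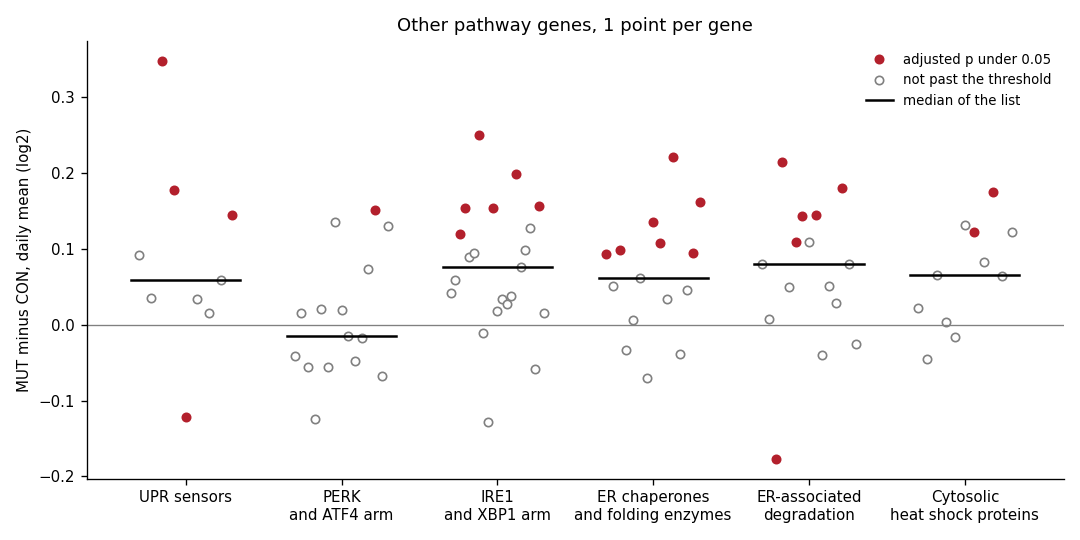
MUT minus CON daily mean in log2 units (vertical axis) for the tested genes of the 5 further pathway lists and of the heat shock list labelled cytosolic (horizontal axis). There is 1 point per gene, filled red where the adjusted p was under 0.05, with a line at each list's median. The highest point is Creb3l1 (0.35), and the lowest red point is Derl3, which fell by 0.18.

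The list of cytosolic heat shock proteins, which answer to HSF1 and not to the ER sensors, also holds the mitochondrial chaperonins Hspd1 and Hspe1. A CON rhythm was called in 7 of its 11 genes tested, among them Hspd1, against 17.1% of all genes. With either the mesothelium or the fibroblast and preadipocyte score as a covariate 5 of the 7 calls ended, and without the 3 arrays of narrow spread 4 did. Hspa8, the constitutive Hsp70, had 0.65 ± 0.07 (SE) with a peak at CT16.7 (limma, adjusted p = 2.15e-05), a call that held without each array and under every other setting run. The 1 rhythm called among the 9 ER genes, that of Herpud1, was 0.37. The difference between these lists was not tested.

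Of the 90 genes of the pathway, members included, 75 have a promoter in the table, and 10 of these promoters hold the ERSE. Of these 10 genes, all tested, 0 had a called CON rhythm (limma), against 17.1% of all genes. An unadjusted p under 0.05 was found for 3 of them (33.7% of all genes), and their median size was 0.16. Of the 61 tested genes whose promoter lacks the ERSE, 14 were called, with a median of 0.21. The median over all genes was 0.18. The difference between these sets was not tested. In the daily mean 3 of the 10 were called, Canx and Hsp90b1 higher and Derl3 lower in MUT, beside 19 of the 61 and 21.7% of all genes.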

How the data were processed

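RNA from the eWAT of 24 mice was isolated with Trizol, labelled with biotin and hybridised by the authors, per the labels' protocols. The deposited values are log2 signals, 1 per probe set, from the authors' use of RMA in Affymetrix Expression Console, per the submitters' processing notes, which name no versions or settings. RMA equalises the arrays' signal distributions and compresses fold changes of dim probe sets. The deposited probe set values were still not equal in distribution. Their array medians ran from 7.80 to 7.94 and their interquartile ranges from 1.94 to 2.18. Of 34390 probe sets, 23521 had 1 gene symbol, 1814 several and 9055 none, and the brightest single-symbol probe set stood for each gene. The filter on low signal dropped genes whose mean lay below the 30th percentile (log2 7.42). A cell-means model with limma 3.58.1 (R 4.3.3) shared 1 estimate of the spread over all arrays. Rhythms were F tests of 24-h cosine and sine contrasts (2 df), time differences F tests over the 4 times (3 df), and genotype differences limma's moderated test, two-sided. Pair correlations were tested with 100000 permutations within groups. Scripts were tested on simulated data. Figures used Python 3.11.15 and matplotlib 3.10.9. Precision is set by 3 arrays per group.

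The members and lists were chosen with earlier results of these data known. Named outside the members are up to 4 genes per list and comparison with the smallest p among those called, and the 3 genes nearest each member. Canx, Derl3, Ddit4 and the CT19 value of Slc3a2 stand outside this rule, chosen after their values were seen. Hspd1 and Hspe1 are also outside it, named because they are mitochondrial. The alternatives were other normalizations and filters, array weights, cell type scores as covariates, the replicate letter as a block, single groups and each array left out. The fibroblast and preadipocyte covariate, the endothelium covariate and the genotype by time test were added after seeing the data.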

Additional observations from a re-analysis of the deposited data

Results flagged for a closer look

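Hspa5 lay higher in every MUT mouse than in every CON mouse at CT13 (difference 0.12) and lower in every MUT mouse at CT19 (-0.31). Calr had the same pattern, with 0.20 at CT13 and -0.14 at CT19. The opposite separation at 2 times is what singled them out. The difference between the times was tested over all 4 times with limma and did not pass, with an adjusted p of 0.124 for Hspa5 and 0.0754 for Calr (unadjusted p = 0.00477 and 0.00157).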

How the results depend on the processing

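Under the alternatives run, no called MUT minus CON difference changed direction, and 49 uncalled values changed sign (26 more without single arrays). Sizes of rhythms and of time differences cannot be below 0, so a change of direction could not be seen in them. Of the gene results under settings other than a left-out array, 1229 kept their side of the threshold, 37 lost it and 17 gained it. Of the 9 genes, calls of a CON rhythm (main 1) numbered 2 with equal array medians, 0 without the 3 arrays of narrow spread, 2 with the filter at the 60th percentile, 3 with array weights and 2 with the endothelium covariate. A differential rhythm (main 0) was called for 1 with the endothelium covariate. Calls of a time difference in CON (main 2) numbered 5 with array weights and 0 without the narrow arrays or with the fibroblast and preadipocyte covariate. They numbered 1 with quantile normalization, equal medians, the replicate block, no filter, CON alone, and the mesothelium or adipocyte covariate. Calls of a time difference in MUT (main 1) numbered 0 in all of these settings but equal medians and array weights, with MUT in place of CON alone. Calls of a daily mean (main 2) numbered 1 with quantile normalization, equal medians or the level trend taken out, and 0 without the narrow arrays or with any of the 4 covariates. At CT13 equal medians gave 1 (main 0), and at CT7 array weights gave 1 (main 0). At CT19 (main 1) there were 0 with equal medians, that time alone, or the adipocyte or endothelium covariate, and 2 with the level trend taken out, the 60th percentile filter or array weights. The cause of these shifts was not tested.

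Leaving out each array in turn gave 0 to 3 CON rhythms, 0 to 3 time differences in CON, 0 to 1 in MUT, 0 to 2 daily means, 0 to 2 calls at CT19, and 0 to 0 elsewhere, with a median pair correlation from 0.044 to 0.19. Same-letter CON and MUT arrays did not deviate together (r from -0.30 to 0.28 over 12 pairs, 3 above 0.1, and 3 of 12 MUT arrays nearest their own letter). That compares arrays within a time point only, and letters shared across times were not compared in this way. The labels do not say whether the letters mark a batch. With the replicate block the calls were 1 CON rhythm, 1 and 0 time differences in CON and MUT, 2 daily means and 1 at CT19. Ddit3 and Sdf2l1 lay nearest the filter (means of 8.58 and 8.70 against 7.42). The SE of their genotype difference at 1 time, 0.10 and 0.08, lay between those of Calr (0.06) and Dnajb9 (0.13).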
